A study of Mus musculus with 3 samples.

Results

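The genes of oxidative phosphorylation were followed through the in vitro differentiation of Leydig cells, the androgen-producing cells of the testis interstitium. Members were taken by symbol, as genes that start with Nduf, Uqcr, Cox4 to Cox8, Atp5, mt-Nd, mt-Co, mt-Atp or mt-Cytb, with Sdha, Sdhb, Sdhc, Sdhd and Cycs. This takes in most subunits of complexes I to V, cytochrome c and the assembly factors with such symbols, but not Cyc1 of complex III or assembly factors named otherwise. A member also had at least 20 UMIs (counted single RNA molecules) over the days of culture. This gave 99 members of the 13593 genes that passed the same minimum, 91 encoded in the nucleus and 8 in the mitochondrial genome. A further 9 of the 108 matching symbols fell below it. Those just inside were Cox4i2 with 29 UMIs, Cox8c with 38 and Cox7a1 with 82, and those just outside were Cox7b2 and Atp5l-ps2 with 9 each and Atp5k-ps2 with 8.

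Cells positive for SCA1 and negative for cKIT were sorted from the testes of adult C57BL/6 mice of 8 to 12 weeks, without a genetic label, and were cultured as 1 population. They first recovered for 18 h in medium with serum. They then grew for 3 days in expansion medium with PDGFAA, PDGFBB and FGF2 at 10 ng/ml each and the hedgehog agonist SAG at 0.5 µM. Differentiation medium then added 5 mM LiCl2 and 10 µM DAPT, an inhibitor of Notch signalling. The paper describes day 4 by its exposure to expansion medium. It places day 7 at 3 days after the change to differentiation medium and day 14 at 10 days of exposure to it. Drop-seq, a droplet method that reads the 3′ end of polyadenylated RNA, was run on 1 library each of day 4, day 7 and day 14. The libraries shared a sequencing batch, and the 3 groups share strain, sort and starting medium and differ in the days of culture and of exposure to the differentiation medium. With 1 library per day there was no replicate and no test was made. Intervals below are exact 95% intervals and cover counting error only, so they say nothing of how another culture would differ.

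The libraries held 2980, 2171 and 973 cells by their barcodes, with medians of 2886.5, 3285 and 3272 UMIs, and no barcode was shared between libraries. Within a library, 43.8% to 51.8% of the cell barcodes shared their first 11 bases with another kept barcode, and the barcodes had only 2027, 1414 and 601 different starts of that length. Of these starts, 274, 229 and 115 were each held by exactly 4 barcodes. If barcodes of the same start belong to 1 cell the numbers of cells are too high, which was not tested. Numbers, shares and percentiles of cells below count each barcode as 1 cell. Sums without the barcodes that share a start are among the alternatives tried. Ly6a, which encodes SCA1, was at 523, 64.2 and 358 CPM (UMIs of a gene per 1000000 UMIs of the library) on days 4, 7 and 14, and Kit was at 2.07 or less on each day. The 6 Leydig markers summed to 243, 470 and 7659 CPM, and all 6 were past 1.5-fold higher on day 14 than on day 7. The 6 myofibroblast markers summed to 5918, 6087 and 491 and the 8 proliferation markers to 776, 705 and 126, and every marker of both lists was past 1.5-fold lower on day 14. Of the other cell types, 3 of the 6 macrophage markers had 20 UMIs or more, and these summed to 7.57, 25.2 and 210, most of it Lyz2 at 4.10, 19.4 and 199.6, whereas Csf1r was at 2.76, 2.32 and 1.88. C1qa had 0 UMIs on days 4 and 7 and C1qb had 0 on day 14. The endothelial markers (2 of 4 measured) summed to 79.7, 113 and 22.3, the Sertoli markers (2 of 4) to 27.8, 32.3 and 15.0 with Amh at 0 throughout, and the germ cell markers (3 of 6) to 115, 18.6 and 36.6. The part of these shifts in the results below was not tested, except where cells within a library were compared.

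Oxidative phosphorylation is the set of reactions in the inner mitochondrial membrane that turns the energy of nutrients into ATP. Complexes I and II pass electrons from NADH and succinate to coenzyme Q, complex III passes them on to cytochrome c, complex IV hands them to oxygen, and complex V makes ATP from the proton gradient. Most subunits are encoded in the nucleus and imported, whereas the mitochondrial genome supplies the hydrophobic core of complexes I, III, IV and V. In Leydig cells steroid synthesis starts in the same organelle, where CYP11A1 cleaves the side chain of cholesterol.

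OXPHOS transcripts took a larger part of the RNA with each day of culture, and those of the mitochondrial genome differed more between days than the nuclear ones. The 81 nuclear structural subunits summed to 23888, 24736 and 30349 CPM on days 4, 7 and 14. The 8 mitochondrially encoded subunits summed to 5617, 8504 and 13542. From day 4 to day 7 the nuclear sum was 1.04-fold higher (95% interval 1.03 to 1.04), and this small difference turned to 0.972-fold when days were aligned on the median ratio of all genes, which was 0.09 on the log2 scale. The mitochondrial sum was 1.51-fold higher (1.499 to 1.53) in the same step. From day 7 to day 14 the nuclear sum was 1.23-fold higher (1.22 to 1.23) and the mitochondrial sum 1.59-fold higher (1.58 to 1.61). The median ratio of all genes was below 0 in this step, at -0.12 on the log2 scale, and relative to it the nuclear sum was 1.33-fold and the mitochondrial sum 1.73-fold higher.

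The mitochondrial genome therefore held a growing share of the OXPHOS UMIs counted. It supplied 19.0% on day 4 (18.9% to 19.2%, exact binomial interval), 25.6% on day 7 (25.4% to 25.7%) and 30.9% on day 14 (30.7% to 31.0%). All 99 members together summed to 29927, 33759 and 44483 CPM. The study's cell filter bears on this directly, because it removed barcodes with more than 10% mitochondrial UMIs and so capped what a kept cell could show. The medians of the kept cells were 1.19%, 1.37% and 2.30% mitochondrial UMIs on the 3 days, and their highest values, 9.16%, 9.93% and 9.26%, were close to the cap. Without the cap the mitochondrial sum differed by 0.62 (day 7 over day 4) and 0.67 (day 14 over day 7) on the log2 scale, against 0.60 and 0.67 with it.

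**Figure D1:**
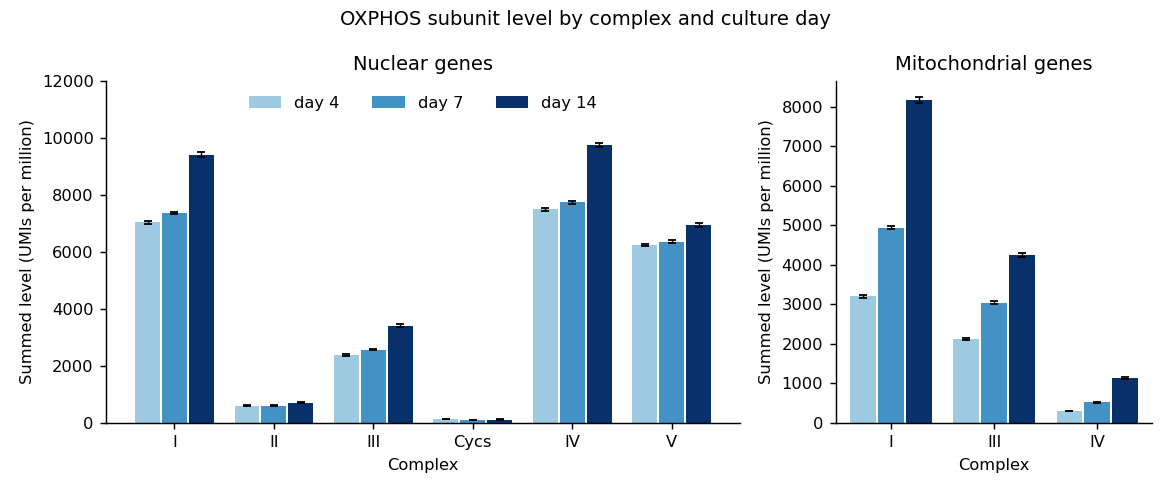
Summed level of the structural subunits of each complex, in CPM of the library, for nuclear genes on the left and mitochondrial genes on the right, with 1 bar per day and exact 95% counting intervals. The mitochondrial bars are higher on each later day in all 3 complexes, whereas the nuclear bars differ mainly between day 7 and day 14, as in complex I, from 7364 to 9414.

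The 8 mitochondrially encoded genes were each higher on day 7 than on day 4, and higher again on day 14. mt-Nd1, a membrane subunit of complex I next to the coenzyme Q site, was at 1043 CPM on day 4, 1476 on day 7 and 2217 on day 14. mt-Nd2, another membrane subunit of complex I, was at 780, 1149 and 2289 on those days, and mt-Nd4 at 395, 627 and 1038. For all 3 genes the counting intervals of the days were separate, and the day 14 level was 2.13-fold to 2.94-fold that of day 4. mt-Nd5, at the far end of the membrane arm, was at 898, 1541 and 2354 CPM. mt-Nd3 had few UMIs and was at 30.1 (27.1 to 33.2), 37.0 (33.6 to 40.6) and 58.4 (52.1 to 65.3). mt-Nd6, the only member whose gene lies on the other strand of the mitochondrial genome (chrM:13552-14070, GRCm38, minus strand), was at 54.1 (50.1 to 58.3), 106 (100 to 112) and 208 (196 to 221). It was 1.96-fold higher in each step. It overlaps mt-Nd5 at its end, and whether strand was used in counting is not given in the sources used here.

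The genes of complexes III and IV kept the same order of days. mt-Cytb, cytochrome b, which carries the b haems of complex III, was at 2117, 3044 and 4243 CPM on days 4, 7 and 14. mt-Co1, the catalytic subunit of complex IV, was at 300.5 (291 to 310), 525 (512 to 538) and 1134 (1105 to 1163). Of the 8 genes, mt-Co1 had the largest ratio of day 14 over day 7, 2.16-fold (2.09 to 2.24), and mt-Cytb the smallest, 1.39-fold (1.37 to 1.42). Past 1.5-fold on the log2 scale with a pseudocount of 1, 4 of the 8 were higher from day 4 to day 7 (mt-Nd4, mt-Nd5, mt-Nd6 and mt-Co1) and 7 from day 7 to day 14, all but mt-Cytb, where 10.4% and 18.4% of all genes were.

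Part of the mitochondrial genome could not be read in full. mt-Co2 had 5 UMIs over the 3 days, mt-Co3 had 3 and mt-Nd4l had 1, and mt-Atp6 and mt-Atp8 were not among the genes of the merged counts. In the GENCODE M21 transcripts, 99.0% of the 94-base windows in the last 400 bases of mt-Co2 also occur in another annotated gene (Gm13341 or Gm28661), as do 99.7% of those of mt-Co3 (in Gm28437) and 98.5% of those of mt-Nd4l (in Gm10222). The same holds for 100% of the windows of mt-Co1 (in Gm13340 and Gm29216) and 97.6% of those of mt-Nd3 (in Gm28438), so the values of these genes are uncertain, because a read that fits several genes can be dropped or split in counting. For mt-Nd2 11.7% of the windows were shared, with Gm13339, and none of the windows of mt-Nd1, mt-Nd4, mt-Nd5, mt-Nd6 and mt-Cytb. Of the absent genes, mt-Atp6 shared 99.0% of its windows, with Gm10925, and mt-Atp8 shared none. Whether the shared windows set the low counts was not tested. Without mt-Co1 and mt-Nd3 the mitochondrial sum still differed by 0.59 and 0.64 on the log2 scale in the 2 steps.

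**Figure D2:**
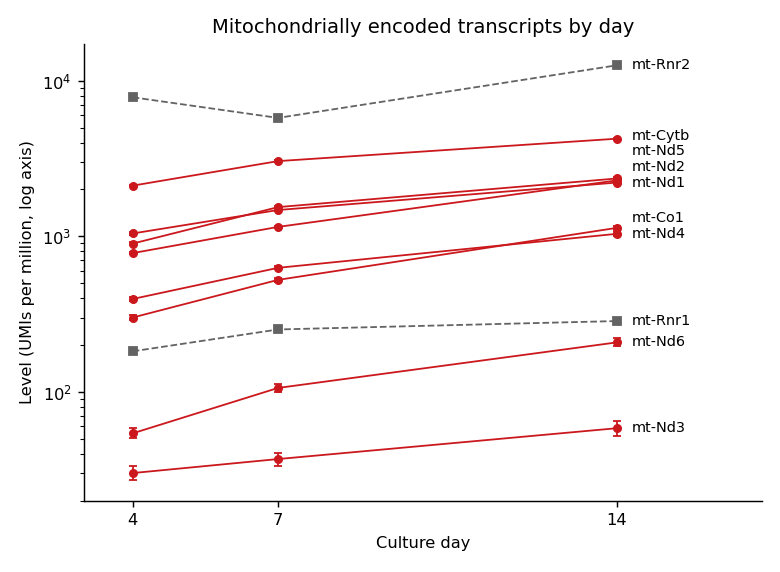
Level of each mitochondrially encoded transcript by culture day, in CPM on a log axis, with circles and solid lines for protein-coding genes and squares and dashed lines for ribosomal RNAs. Bars are exact 95% counting intervals. The 8 protein-coding genes are higher on each later day, whereas mt-Rnr2 goes from 7832 to 5771 and then to 12580.

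Of the ribosomal RNAs of the same genome, the large one did not follow the course of the protein-coding genes, whereas the small one was higher in each step, as they were. mt-Rnr2, the large ribosomal RNA, was at 7832 CPM on day 4, 5771 on day 7 and 12580 on day 14, so it was 0.737-fold (0.730 to 0.744) from day 4 to day 7 while all 8 protein-coding genes were higher. mt-Rnr1, the small ribosomal RNA, was at 182, 252 and 285, 1.38-fold (1.31 to 1.46) and 1.133-fold (1.06 to 1.21). The ratio of protein-coding UMIs to mt-Rnr2 UMIs was 0.717 on day 4, 1.47 on day 7 and 1.08 on day 14. Day 7 thus had the most protein-coding UMIs counted per mt-Rnr2 UMI, although both were at a higher CPM on day 14. How far the UMIs of a method for polyadenylated RNA follow the amount of a ribosomal RNA was not tested.

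Among the nuclear genes, complex I (NADH dehydrogenase) gave the second largest ratio of day 14 over day 7 of the 5 complexes. Its 36 structural subunits summed to 7038, 7364 and 9414 CPM on days 4, 7 and 14, with a ratio of 1.28-fold (1.26 to 1.29) in the later step. In this step 30 of the 36 were higher and none was past 1.5-fold lower, against 43.1% and 25.8% of all genes. Past 1.5-fold higher were 7 of the 36, or 19.4%, near the 18.4% of all genes. In the earlier step 22 of the 36 were higher, or 61.1%, near the 59.9% of all genes. None was past 1.5-fold either way, against 10.4% of all genes past it higher and 6.7% past it lower.

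Ndufa1, an accessory subunit encoded on the X chromosome (chrX:37187588-37191163, GRCm38), was at 211 (203 to 219), 181 (173 to 189) and 439 (421 to 457) CPM. Ndufb11, also X-linked (chrX:20615326-20617619), was at 209 (201 to 217), 229 (220 to 238) and 521 (502 to 541). Both stood above all other nuclear subunits of complex I in this step, with ratios to day 7 of 2.42-fold (2.28 to 2.57) and 2.27-fold (2.16 to 2.40). Ndufa6, a subunit of the LYR family, followed with 2.04-fold (1.93 to 2.16). Ndufs3, Ndufb5, Ndufb8 and Ndufv3 were 1.53-fold to 1.67-fold higher, but 45.3% of the end windows of Ndufs3 also occur in Gm12251, so its level is uncertain.

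The 7 nuclear core subunits, which carry the flavin and most iron-sulphur clusters, had a higher sum already from day 4 to day 7. In that step 6 of the 7 were higher, as were 59.9% of all genes. None of them was past 1.5-fold, and Ndufv2 was at 0.991-fold (0.939 to 1.05). The sum was at 908, 1050 and 1280 CPM, 1.16-fold higher (1.127 to 1.19) in the first step and 1.22-fold (1.18 to 1.26) in the next. The 29 accessory subunits gave 1.03-fold (1.02 to 1.04) and 1.29-fold (1.27 to 1.30). Relative to the median of all genes the first step was 1.09-fold for the core and 0.967-fold for the accessory subunits, so the direction for the accessory subunits depended on the scaling. Ndufv1, the flavin-bearing subunit where NADH is oxidised, was at 60.2, 86.7 and 107 CPM. Its 1.44-fold (1.31 to 1.58) from day 4 to day 7 was the largest ratio of the nuclear structural subunits of complex I in that step.

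The lowest nuclear members of complex I relative to day 7 were an acyl carrier protein and an assembly factor. Ndufab1, the mitochondrial acyl carrier protein and a subunit of complex I, was at 128 (122 to 135), 155 (147 to 162) and 114 (105 to 124) CPM and so 0.739-fold (0.673 to 0.810) from day 7 to day 14. Ndufaf1, an assembly factor of the membrane arm, was at 21.5 (19.0 to 24.2), 29.4 (26.4 to 32.7) and 22.2 (18.3 to 26.5). The 9 assembly factors among the members summed to 267, 289 and 263. They were 0.908-fold (0.853 to 0.967) in the later step, when the structural subunits of their complexes were higher, and 0.987-fold relative to the median of all genes.

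Complex II (succinate dehydrogenase) has 4 subunits, all nuclear, and also belongs to the tricarboxylic acid cycle. Their sum was at 601, 593 and 711 CPM, 0.988-fold (0.956 to 1.02) and then 1.20-fold (1.15 to 1.25). Sdha, the flavoprotein, was at 92.5 (87.3 to 98.0), 99.0 (93.4 to 105) and 149 (139 to 160). Sdhb, the iron-sulphur subunit, was at 192, 184 and 214. Sdha alone was close to the 1.5-fold limit on day 14, at 0.58 on the log2 scale. Sdhc and Sdhd, the membrane anchors, were at 176, 181 and 194 and at 140, 130 and 154. The interval of the day 14 over day 7 ratio of Sdhc spanned no change (0.996 to 1.16).

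Complex III (cytochrome bc1) had the largest nuclear ratio of day 14 over day 7 among the complexes. The 8 nuclear subunits summed to 2381, 2572 and 3412 CPM, 1.08-fold (1.06 to 1.10) and 1.33-fold (1.30 to 1.35). Uqcr10, a small subunit, was at 295 (286 to 305), 354 (343 to 365) and 748 (725 to 771). Uqcrh, the hinge protein that meets cytochrome c1, was at 428, 483 and 746, 1.54-fold higher (1.48 to 1.61) in the later step. These were the only 2 of the 8 past 1.5-fold in that step (25%), against 18.4% of all genes past it higher and 25.8% past it lower. Cyc1, which encodes cytochrome c1 and is outside the membership rule, was at 144, 163 and 202. Uqcrb, a coenzyme Q binding protein, went the other way in both steps, from 485 to 414 to 356, and 18.9% of its end windows occur in other genes. The Rieske iron-sulphur protein gene Uqcrfs1 was at 131, 152 and 161. Cycs, the electron carrier cytochrome c, was at 126 (120 to 133) on day 4, 108 (103 to 115) on day 7 and 109 (101 to 119) on day 14, so the carrier between complexes III and IV did not show the later increase of either.

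Complex IV (cytochrome c oxidase) differed among its genes, as complexes I and V did. The 17 nuclear subunits summed to 7493, 7742 and 9753 CPM, 1.26-fold higher (1.25 to 1.27) from day 7 to day 14. Only 9 of the 17 were higher in that step, or 52.9%, against 43.1% of all genes. Cox6a1, Cox6c, Cox8a and Cox4i1 were the high ones among the ubiquitous subunits. Cox6a1, a regulatory subunit, was at 802, 935 and 1766, 1.89-fold higher (1.84 to 1.94) on day 14. Cox6c was at 950, 861 and 1357, and 16.9% of its end windows are shared with Cox6c2. Cox8a was at 613, 667 and 968, and Cox4i1, the subunit at which ATP acts on the enzyme, at 991, 1134 and 1576. In contrast Cox5a was at 507, 566 and 418, and Cox7a2, Cox7b and Ndufa4 were each within 0.920-fold to 0.962-fold of their day 7 level. Subunits of the same enzyme, present in equal numbers in each complex, were thus spread from 0.740-fold (Cox5a) to 1.89-fold (Cox6a1).

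Several complex IV subunits have a second gene used in particular tissues, and among these minor isoforms were the members with the highest and the lowest ratio of day 14 over day 7, Cox7a1 and Cox6a2. They were a small share of their families at every time. Cox6a2, the heart and skeletal muscle form, was at 6.78 (5.43 to 8.38), 14.2 (12.1 to 16.5) and 4.70 (3.04 to 6.93) CPM and made up 0.839%, 1.49% and 0.265% of the Cox6a UMIs. Ndufa4l2, a relative of Ndufa4 induced by low oxygen in many cells, was at 4.89 (3.75 to 6.27), 11.4 (9.58 to 13.6) and 5.45 (3.65 to 7.82). Both were highest on day 7, and they were the 2 members past 1.5-fold lower from day 7 to day 14.

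Cox6b2, the testis form of a subunit that binds at the cytochrome c side, had its highest level on day 14, at 8.68 (7.13 to 10.5), 12.7 (10.8 to 15.0) and 31.0 (26.4 to 36.1) CPM. Its share of the Cox6b UMIs was 1.31% (1.08% to 1.57%), 1.75% (1.48% to 2.05%) and 3.46% (2.96% to 4.02%). The ubiquitous Cox6b1 was at 655, 715 and 864. Cox7a1, another heart and muscle form, had 21, 14 and 47 UMIs in all, and was 7.33-fold higher on day 14 than on day 7 with a wide interval (3.97 to 14.4). Its share of the UMIs of Cox7a1 and Cox7a2 was 0.301%, 0.234% and 1.76% (1.29% to 2.33%). Cox7a2l, grouped here as a supercomplex factor and not as a structural subunit, was at 156, 229 and 330, 1.47-fold (1.39 to 1.56) and 1.44-fold (1.35 to 1.53).

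The remaining minor isoforms were at the limit of detection. Cox4i2, the isoform known from lung, had 11, 13 and 5 UMIs, and the interval of both ratios spanned no change. Cox8c, known from testis, had 14, 10 and 14 UMIs, and was 3.06-fold (1.26 to 7.69) on day 14 over day 7. Cox8b had 0 UMIs on day 4, which allows a share of up to 0.0386% of the Cox8 UMIs, and 2 and 3 on the later days. Cox7b2 had 3 UMIs on each day.

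**Figure D3:**
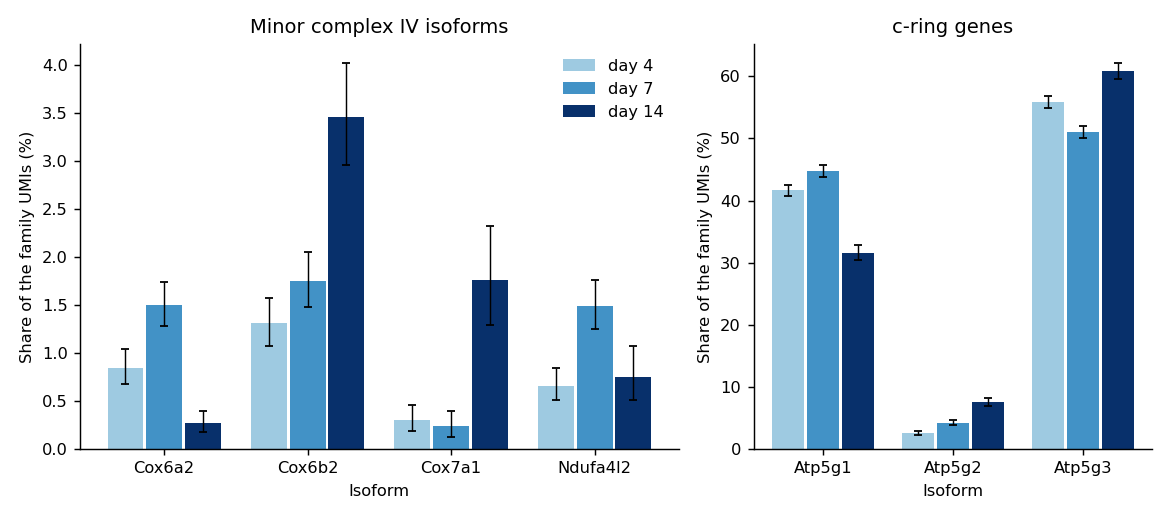
Share of each isoform in the UMIs of its gene family by day, in percent, for minor complex IV isoforms on the left (family partners Cox6a1, Cox6b1, Cox7a2 and Ndufa4) and the 3 c-ring genes of complex V on the right. Bars are exact 95% binomial intervals. Cox6b2 and Cox7a1 are at their highest share on day 14, Cox6a2 and Ndufa4l2 on day 7, and Atp5g2 takes 2.53%, 4.20% and 7.54% of the c-ring UMIs.

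Complex V (ATP synthase) had the smallest ratio of day 14 over day 7 among the complexes. The 15 nuclear subunits summed to 6249, 6357 and 6950 CPM, 1.02-fold (1.01 to 1.03) and then 1.09-fold (1.08 to 1.11). In the later step 10 of the 15 were higher (66.7%), against 43.1% of all genes. The 5 genes of the catalytic F1 head gave 1.09-fold (1.06 to 1.11) in that step and the other 10 genes gave 1.10-fold (1.08 to 1.12). Atp5f1, a subunit of the peripheral stalk, was lowest relative to day 7, at 524, 507 and 377. Atp5l, a small membrane subunit, was at 31.9 (28.8 to 35.1), 31.8 (28.7 to 35.2) and 49.0 (43.3 to 55.3), with 70.4% of its end windows in other genes, which leaves its level uncertain.

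The 3 genes of the c ring encode the same mature protein behind different import peptides, and their shares differed between days, while their order by level was the same on each day. Atp5g1 was at 349 (339 to 359), 412 (400 to 424) and 340 (324 to 356) CPM. Atp5g2 was at 21.2 (18.8 to 23.9), 38.6 (35.1 to 42.4) and 81.1 (73.7 to 89.2). Atp5g3 was at 468 (456 to 480), 469 (457 to 482) and 654 (633 to 676). The share of Atp5g1 in the family went from 44.8% (43.9% to 45.7%) on day 7 to 31.6% (30.4% to 32.8%) on day 14, and both other genes had a larger share on day 14. Atp5g2 was higher in both steps, 1.82-fold (1.56 to 2.12) and 2.10-fold (1.84 to 2.40), and 11.1% of its end windows occur in other genes.

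**Figure D4:**
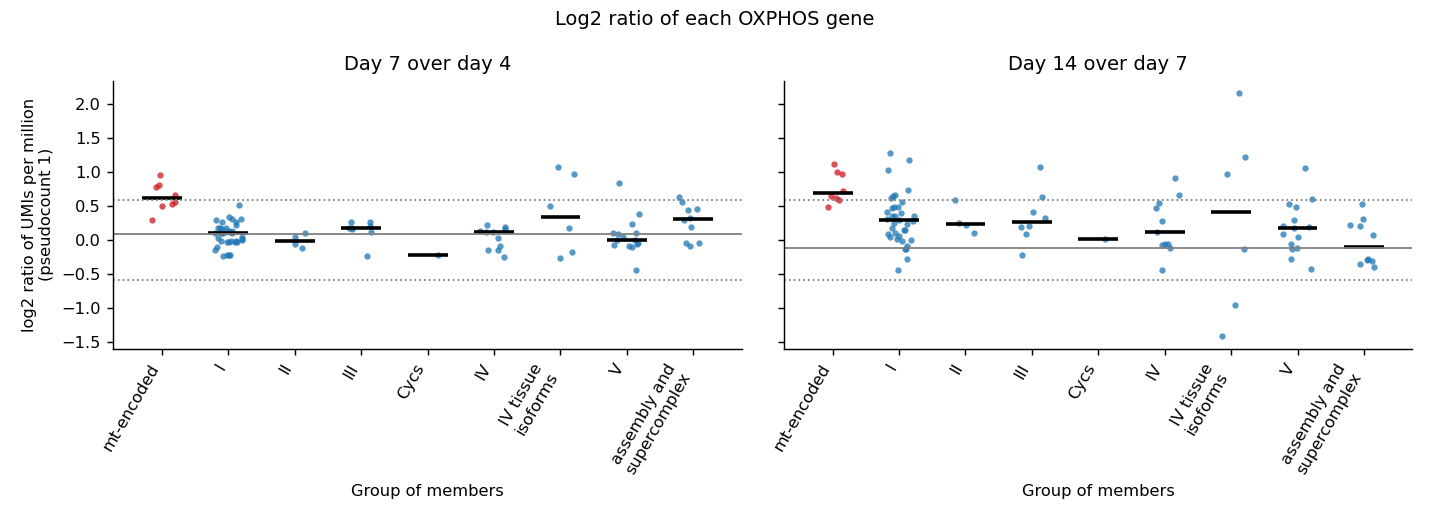
Log2 ratio of each member between days (CPM with a pseudocount of 1), by complex, with mitochondrially encoded genes in red and nuclear genes in blue. Black lines are group medians, the grey line is the median of all 13593 genes and dotted lines mark 1.5-fold. All 8 red points lie above 0 in both panels, and in the right panel the tissue isoforms of complex IV span from -1.42 to 2.16.

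Counted over all members, 8 of the 99 were past 1.5-fold higher from day 4 to day 7 and none was past 1.5-fold lower. Of all 13593 genes, 10.4% were past 1.5-fold higher and 6.7% past 1.5-fold lower in that step, so the share of members past the limit was near that of other genes or below it. Besides the 4 mitochondrial genes these 8 were Ndufa4l2, Cox6a2, Atp5g2 and the assembly factor Ndufaf5. From day 7 to day 14, 23 of the 99 were past 1.5-fold higher and 2 were past 1.5-fold lower, against 18.4% and 25.8% of all genes. The members' median log2 ratio was 0.11 in the first step and 0.24 in the next, beside 0.09 and -0.12 over all genes. Members have many UMIs, and among the 4535 genes with at least 1000 UMIs 13.4% were past 1.5-fold higher and 29.0% past it lower in the later step, against 20 and 0 of the 87 members of that depth.

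Taken by direction alone, 65 of the 99 members lay above 0 in the first step, against 59.9% of all genes, and 74 in the later step, against 43.1%. Of the 91 nuclear members, 44 were higher in both steps, 22 were lower and then higher, 13 were higher and then lower and 12 were lower in both. In the later step 66 of the 91 lay above 0 and 74 lay above the median of all genes. In the first step these counts were 57 and 50.

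Promoters were examined for the motifs of factors known to act on nuclear OXPHOS genes. RefSeq start sites (GRCm38.p6) were matched for 75 of the 91 nuclear members, with 250 bases before the start and 50 after. Each motif was searched on both strands. The NRF1 motif GCGCATGCG was in 11 of the 75 (14.7%) and in 1.95% of all 27025 promoters. The YY1 motif AAGATGGCG was in 8 (10.7%, against 1.64% of all promoters) and the ETS motif CCGGAAGT, bound by GABPA, in 5 (6.67%, against 4.31%). The element CAAGGTCA, bound by the nuclear receptors ESRRA and NR5A1, was in 4 (5.33%, against 1.76%). Of the 14 searched promoters of nuclear members past 1.5-fold higher in the later step, 3 held the NRF1 motif, 2 the ETS motif, 1 the receptor element and none the YY1 motif. The NRF1 and YY1 motifs were first searched with 1 base more at the 3′ end (C and G), which gave 7 members (9.33%, against 1.07% of all promoters) and 6 (8.00%, against 0.995%).

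The following windows of 100 bases, which end at the start site except for Cox6a1 (192 to 93 bases before it), show what such promoters look like in genes named above, with the motif in capitals, on the strand of the gene. The NRF1 motif nearly matches its own reverse complement, so the capitals run 1 base longer where both strands match. Atp5g2 (chr15:102671048-102671147, minus strand) and Cox6a1 (chr5:115349051-115349150, minus strand) hold the NRF1 motif and were higher on day 14. Uqcrh (chr4:116075071-116075170, minus strand) holds the ETS motif and Atp5g3 (chr2:73911327-73911426, minus strand) the receptor element, each as its reverse complement. Atp5k (chr5:108434400-108434499, minus strand), a small membrane subunit of complex V, and Cycs (chr6:50566570-50566669, minus strand) hold the NRF1 motif too, but Atp5k was at 249, 183 and 167 CPM and Cycs, as given above, at 126, 108 and 109.
Atp5g2: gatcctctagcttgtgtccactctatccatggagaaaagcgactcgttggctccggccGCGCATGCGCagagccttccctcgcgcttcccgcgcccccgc
Cox6a1: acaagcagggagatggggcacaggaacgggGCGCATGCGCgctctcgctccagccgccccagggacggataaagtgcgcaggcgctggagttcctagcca
Uqcrh: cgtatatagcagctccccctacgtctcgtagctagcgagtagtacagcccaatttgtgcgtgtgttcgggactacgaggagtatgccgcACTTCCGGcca
Atp5g3: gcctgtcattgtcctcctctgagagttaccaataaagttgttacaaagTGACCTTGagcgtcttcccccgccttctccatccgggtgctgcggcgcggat
Atp5k: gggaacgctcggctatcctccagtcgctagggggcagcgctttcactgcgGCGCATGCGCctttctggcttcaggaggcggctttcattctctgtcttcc
Cycs: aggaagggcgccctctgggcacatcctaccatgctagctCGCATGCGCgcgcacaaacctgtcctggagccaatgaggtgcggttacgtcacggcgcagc

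A perfect match to these letters is a description of the window and not a mapped binding site. The transcripts of the factors did not move as 1 group. Nrf1 was at 15.8, 17.4 and 8.64 CPM, Gabpa at 49.3, 55.5 and 28.2, Gabpb1 at 17.7, 16.9 and 5.45 and Yy1 at 94.2, 85.0 and 60.7, whereas Esrra was at 6.23, 7.91 and 9.77 and Nr5a1, a Leydig marker, at 11.2, 21.8 and 136. Of the 17 measured regulators of mitochondrial biogenesis, Nrf1, Gabpa and Gabpb1 were past 1.5-fold lower from day 7 to day 14 (17.6%, against 25.8% of all genes). Polg2 was the only gene of the list past 1.5-fold higher, against 18.4% of all genes. The list summed to 640, 574 and 471, and 15 of its 17 genes were lower in that step, when 43.1% of all genes were higher.

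The summed CPM of the mitochondrial ribosome, the tricarboxylic acid cycle and the carriers was not higher on day 14 than on day 7. Relative to the median of all genes these sums were 0.981-fold, 1.06-fold and 0.925-fold in that step. Of all genes, 43.1% were higher in it, 18.4% past 1.5-fold higher and 25.8% past it lower. The 76 genes of the mitochondrial ribosome summed to 6232, 6796 and 6136 CPM, 0.903-fold (0.891 to 0.915) from day 7 to day 14, with 28 of the 76 higher in that step, 2 past 1.5-fold higher and 5 past 1.5-fold lower. Their median log2 ratio was -0.18. The 16 genes of the tricarboxylic acid cycle and pyruvate dehydrogenase, at 1691, 1705 and 1670, gave 0.979-fold (0.955 to 1.00) with 8 genes higher and 8 lower. Suclg2 was the largest among the higher ones, from 26.0 to 63.1, and Idh3a among the lower ones, from 111 to 27.8. The 24 carriers, porins and import factors were at 7094, 7750 and 6592, with 9 of the 24 higher and a median of -0.20.

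The 15 genes of coenzyme Q synthesis and electron entry, Cyc1 included, summed to 802, 865 and 1053 CPM, 1.22-fold higher (1.18 to 1.26) from day 7 to day 14, although the median log2 ratio of the list was 0.02. Etfdh, which passes electrons from fatty acid oxidation to coenzyme Q, was the gene of the list past 1.5-fold higher, from 31.6 to 65.9. Past 1.5-fold lower were 2 genes, Pdss1 of coenzyme Q synthesis, from 9.46 to 4.88, and Gpd2, the glycerol phosphate dehydrogenase, from 31.2 to 20.3. The 36 assembly factors outside the membership rule summed to 1640, 1877 and 2015, with 5 past 1.5-fold higher and 5 past 1.5-fold lower in the later step. In the cytosol, 17 genes of glycolysis summed to 3528, 4177 and 4813, 1.15-fold higher (1.135 to 1.17), with 3 past 1.5-fold higher and 5 past it lower. Of all genes, 18.4% were past 1.5-fold higher and 25.8% past it lower in that step. Aldoc, an aldolase, was at 22.4 on day 7 and 72.1 on day 14, whereas Pfkp, a phosphofructokinase, was at 86.2 and 17.7. The 87 genes of the cytosolic ribosome summed to 134507, 130596 and 121440 and had a median log2 ratio of -0.05.

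Cell by cell, the mitochondrial share was higher on each later day from the 5th percentile (0.254%, 0.434% and 0.613%) to the 95th (0.966%, 1.60% and 2.36%), whereas the 5th percentile of the nuclear share changed little, at 1.72%, 1.70% and 1.82%. The share of nuclear OXPHOS UMIs among the nuclear UMIs of a cell had medians of 2.42%, 2.51% and 3.02% on days 4, 7 and 14, and the share of mitochondrially encoded subunits among all UMIs had medians of 0.534%, 0.813% and 1.24%. The lower quartile of day 14 for the mitochondrial share, 0.985%, lay above the upper quartile of day 4, 0.672%. Nuclear shares overlapped more, with quartiles of 2.16% to 2.72% on day 4 and 2.50% to 3.60% on day 14. Within a day, the median mitochondrial share of cells at or above the median depth was 0.536%, 0.794% and 1.26% on days 4, 7 and 14. In shallower cells it was 0.533%, 0.850% and 1.20%, so the direction differed between days. The median nuclear share was 2.41%, 2.51% and 3.10% in the deeper cells and 2.43%, 2.50% and 2.94% in the shallower ones.

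**Figure D5:**
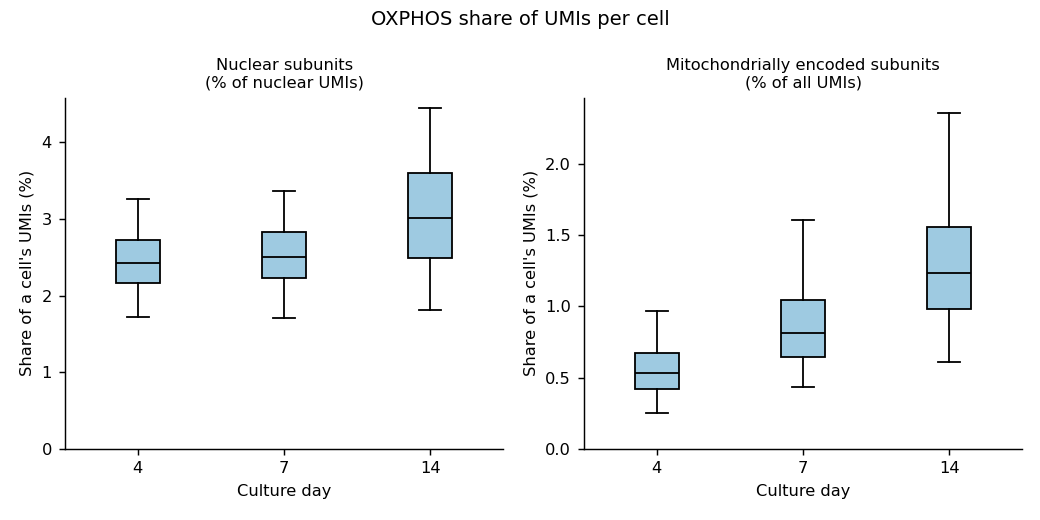
OXPHOS share of the UMIs of each cell by culture day, in percent, for nuclear subunits on the left and mitochondrially encoded subunits on the right. Boxes span the quartiles with the median as a line, and whiskers span the 5th to the 95th percentile of 2980, 2171 and 973 cells. The day 14 boxes are highest and widest in both panels.

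On day 14 the cells with a UMI of Cyp17a1, which encodes a steroidogenic enzyme of Leydig cells, could be set beside the others of the same library. There were 242 such cells with a median of 6057 UMIs and 731 others with a median of 2885, and 97 of the 242 had a single Cyp17a1 UMI. A Cyp17a1 UMI was found in 24.9% of the cells of day 14, and in 0.0671% and 0.368% of those of days 4 and 7 at medians of 2886.5 and 3285 UMIs. No cell type that lacks the gene was set apart within the day 14 library, so its own background share was not measured. The other steroidogenic genes were not limited to these cells, as Star was at 1169 CPM in them and 914 in the others, and Cyp11a1 at 4092 and 836. The nuclear subunits were at 32378 CPM in cells with Cyp17a1 and 29080 in cells without, a ratio of 1.11-fold (1.10 to 1.12). The mitochondrially encoded subunits were at 15361 and 12404, 1.24-fold (1.22 to 1.26). After thinning every cell to 1500 UMIs, where 131 cells still had a Cyp17a1 UMI, these ratios were 1.11-fold (1.08 to 1.14) and 1.43-fold (1.37 to 1.48). With at least 2 Cyp17a1 UMIs (145 cells) against none, a comparison added after seeing the data, they were 1.17-fold (1.15 to 1.18) and 1.31-fold (1.29 to 1.34). mt-Rnr2 was at 12263 and 12778, 0.960-fold (0.945 to 0.975), so it was not among the transcripts that were higher in cells with Cyp17a1. After thinning it was 1.02-fold (0.980 to 1.07), an interval that spans no change. mt-Rnr1 was not compared in this way.

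Single members differed in this comparison in ways the sums do not show. Atp5g3 was 1.45-fold (1.35 to 1.55), mt-Nd2 1.43-fold (1.38 to 1.48) and Cox6a1 1.40-fold (1.35 to 1.46) in cells with Cyp17a1, whereas Cox6c was 0.986-fold (0.940 to 1.03) and Atp5g2 0.969-fold (0.793 to 1.18). Past 1.5-fold were Ndufb8 and Cox6a2 (higher) and Ndufa4l2 (lower), 2 and 1 of the 99 members against 9.25% and 12.4% of all genes, and the intervals of Cox6a2 and Ndufa4l2 spanned no change.

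Day 14 cells without a Cyp17a1 UMI were also above the day 7 library. The nuclear subunits were 1.18-fold (1.17 to 1.18) and the mitochondrially encoded subunits 1.46-fold (1.44 to 1.48) over day 7. A cell without a UMI can still express Cyp17a1 below detection, so these cells are not a group without Leydig markers.

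Cells with at least 2 UMIs of the proliferation markers were compared with the others on days 4 and 7. On day 4 there were 622 such cells and 2358 others, and on day 7 521 and 1650, with the gated cells being deeper (medians of 4461.5 and 5585 UMIs against 2646 and 2809.5). The nuclear sum was 0.991-fold (0.983 to 0.999) on day 4 and 0.993-fold (0.985 to 1.00) on day 7. The mitochondrial sum was 0.985-fold (0.969 to 1.00) on day 4 and 0.846-fold (0.835 to 0.858) on day 7. Cycs was higher in the gated cells on both days, 1.22-fold (1.10 to 1.36) and 1.36-fold (1.21 to 1.52). After thinning every cell of day 4 to 1500 UMIs, Cycs was 1.25-fold (0.974 to 1.59), an interval that spans no change. The nuclear and mitochondrial sums were then 0.972-fold (0.954 to 0.990) and 0.978-fold (0.940 to 1.02). For day 7 only the ratios from all UMIs are given. On that day cells at or above the median depth had a median mitochondrial share of 0.794% and shallower cells 0.850%.

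Few members passed 1.5-fold in this comparison. On day 4 Ndufaf5 was past it higher, at 1.62-fold (1.02 to 2.55), and Cox4i2, Cox6b2, Ndufa4l2 and Atp5s past it lower, against 9.29% and 6.72% of all genes. Cox6b2 was 0.585-fold (0.345 to 0.949), Ndufa4l2 0.477-fold (0.216 to 0.948) and Atp5s 0.479-fold (0.267 to 0.811). These calls rest on few UMIs in the gated cells, 34 of Ndufaf5, 21 of Cox6b2, 10 of Ndufa4l2 and 17 of Atp5s. Cox4i2 had 0 UMIs in them and 11 in the others. On day 7 Cox6b2 was the only member past it, lower in the gated cells at 6.57 CPM against 15.9 (0.413-fold, 0.260 to 0.635), against 6.81% of all genes lower and 7.77% higher.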

How the data were processed

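Counts of UMIs per gene and cell barcode of 3 Drop-seq libraries were used as the authors deposited them. The authors aligned reads to GRCm38 with STAR and counted with Drop-seq tools, without normalization. The submitters' processing notes list STAR 2.5.2a, Picard 2.6.0 and SAMtools 1.2, and the annotation release is not given in the sources used here. All values come from the merged table, which keeps cells of 500 genes or more and no more than 10% of UMIs from the mitochondrial genome. The tables per day served the other cell filters. Another 495 columns of the merged table belong to no sample here and were not used.

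UMIs were summed per library and divided by its total of 12677110, 11627440 or 5324400 UMIs (days 4, 7 and 14) to give CPM, so 3 UMIs are worth 0.237, 0.258 and 0.563 CPM. Intervals are exact Poisson, binomial or conditional intervals at 95% for counting error. Values are 3′ counts and are not scaled to transcript length. A gene was called past 1.5-fold on log2 ratios with a pseudocount of 1 CPM, and genes needed at least 20 UMIs. With 1 library per day no test was possible. Named in full were all mitochondrial members, the isoform families, Sdh genes and Cycs and, per complex, the 2 highest and 2 lowest nuclear members of at least 100 UMIs by day 14 over day 7, and further members were named after their values were seen. The NRF1 and YY1 motifs were shortened to 9 letters after a search with 1 letter more, and both counts are given. Members and lists were chosen with earlier results of these data known. Doublets were not called, and leaving out the 5% of cells with the most UMIs is among the alternatives. The calculation of ratios and intervals was checked on simulated Poisson counts. These had no variation between cells or cultures, so the check says nothing of such variation. Python 3.11.15, numpy 2.4.6, scipy 1.17.1 and matplotlib 3.10.9 were used.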

Additional observations from a re-analysis of the deposited data

How the results depend on the processing

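With 1 library per day, no replicate could be left out, and no paired analysis was possible because each day has a single library. On the log2 scale the nuclear sum differed by 0.05 (day 7 over day 4) and 0.30 (day 14 over day 7) and the mitochondrial sum by 0.60 and 0.67. The direction held under every alternative except for the nuclear sum from day 4 to day 7, which turned to -0.040 with the median ratio over all genes, where the others were 0.51 (mitochondrial, day 7 over day 4), 0.42 and 0.79 (nuclear and mitochondrial, day 14 over day 7). Equal weight per cell gave 0.041 and 0.70 in the first step and 0.27 and 0.53 in the next, and cells thinned to 1500 UMIs 0.035 and 0.66 in the first step and 0.62 for the mitochondrial sum in the next. In the first step the mitochondrial sum was 0.63 with no cell filter, 0.57 with a stricter filter (800 genes or more, mitochondrial UMIs of 5% or less), 0.62 with no mitochondrial limit, 0.62 without the 5% of cells with the most UMIs and 0.58 without barcodes that share 11 bases. In the next step it was 0.65 with the stricter filter, 0.69 per nuclear UMIs, 0.70 without those barcodes and 0.64 without members whose end has a copy, and the nuclear sum was 0.30 with the stricter filter, 0.27 without the deepest cells, 0.31 per nuclear UMIs and 0.28 without those barcodes. The last 2 exclusions, of barcodes and of members, were chosen after seeing the data.

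Members past the limit were 8 higher and 0 lower, then 23 higher and 2 lower. The 23 became 34 with the median ratio over all genes and 17 with equal weight per cell. At 2-fold they were 1 higher in the first step and 8 higher and 1 lower in the next. With a pseudocount of 10 they were 5 higher in the first step and 1 lower in the next, and in thinned cells 1 and 5 were lower in the 2 steps. Thinning left out 753, 429 and 179 cells on days 4, 7 and 14. Counting depth limits the minor isoforms, since 3 UMIs are worth 0.563 CPM on day 14.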

Other observations

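Barcodes outside the comparisons with more than 10% mitochondrial UMIs numbered 28, 43 and 64 on days 4, 7 and 14. They came from 3300, 2400 and 1300 deposited barcodes and had medians of 701.5, 835 and 425 UMIs. Of them, 12, 26 and 13 had 500 genes or more, and the rest also fell below the gene minimum of the filter. The high mitochondrial share of all these barcodes follows from how they were chosen. Of their UMIs, the mitochondrially encoded subunits made up 4.63%, 7.20% and 7.10% and mt-Rnr2 9.45%, 5.97% and 9.39%. The subunits thus outnumbered mt-Rnr2 in these barcodes on day 7, and mt-Rnr2 outnumbered them on days 4 and 14.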
